A study of Drosophila melanogaster with 4 samples.

Results

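ORC2 binding on the euchromatic part of chromosome arm 3R was described from 3 lists of ChIP-seq peaks of Drosophila melanogaster embryos. Chromatin immunoprecipitation followed by sequencing (ChIP-seq) pulls down DNA bound by a protein and reads it. The peaks taken were those on 3R whose midpoint lay above base 2000000 of FlyBase release 5.1, so that the stretch next to the centromere was left out. They numbered 276 of 1386 peaks in replicate 1, 320 of 1600 in replicate 2 and 95 of 540 regions in the series-level list. The labels describe 4 samples from whole embryos of mixed stages, 0 to 24 h: 2 ORC2 ChIP samples, each from an extraction with its own number, and 2 samples of input DNA, which were not analysed here. No genotype, strain or treatment is named in the labels used here. The antibody was a crude polyclonal rabbit serum raised against the purified full-length fly ORC2 protein. Embryos of all stages and all cell types were mixed, so a peak stands for an average over tissues.

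ORC2 belongs to the origin recognition complex (ORC), a protein assembly that binds DNA before S phase and helps to load the MCM helicase at places where replication can start. In animals ORC shows little preference for a fixed DNA sequence and is found mostly at open chromatin, often near active promoters. More sites are prepared with ORC and MCM than are used in any S phase. Early fly embryos pass through very short cell cycles with densely spaced starts of replication, and later cells slow down and use fewer starts, so a collection over the whole of embryogenesis holds both kinds of nuclei.

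The 3R peaks were short in both samples. Their median width was 136 bp in replicate 1 (lower and upper quartile 86.8 and 234 bp) and 88 bp in replicate 2 (46 and 138 bp), against 138 bp and 92 bp in the whole lists. Together they covered 47.2 kb in replicate 1 and 34.8 kb in replicate 2. The sequencing read was 36 nt, and 31 of the 276 replicate 1 peaks and 60 of the 320 replicate 2 peaks were narrower than that. These shares, 11.2% and 18.75%, were near those of the whole lists, 9.52% and 18.9%. The score of a peak is a positive number that the authors deposited without a unit. On 3R its median was 2.15 in replicate 1 (range 1.42 to 4.31) and 2.33 in replicate 2 (range 1.48 to 17.9). The 95 shared regions, each the union of overlapping replicate peaks with their mean score, had a median width of 252 bp and a median score of 2.21. The files hold no read numbers, so the depth behind a peak is unknown.

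The limit at 2000000 passed through a stretch with few peaks. In replicate 1 the last peak below it was at 1834242 to 1834290 (score 2.39) and the first above it at 2617246 to 2617548 (score 1.67). In replicate 2 these were at 1426285 to 1426386 (score 4.10) and at 2069912 to 2069960 (score 2.56). In the series-level list they were at 1193939 to 1194102 (score 1.85) and at 2617246 to 2617548 (score 1.65). No peak straddled the limit in these lists.

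By an overlap of 1 bp or more, most 3R peaks were seen in 1 of the 2 samples. On 3R, 95 of 276 replicate 1 peaks (34.4%, Wilson 95% interval 29.1 to 40.2) overlapped a peak of the other sample, where the share over that whole list was 39.0%. For replicate 2 it was 95 of 320 (29.7%, interval 24.9 to 34.9), against 34.1% over the whole list. Each of the 95 shared regions joined exactly 1 peak from each sample. A further 39 peaks of replicate 1 and 42 of replicate 2 had a partner within 1 kb without touching it, which left 142 and 183 peaks with none. With these included, 48.6% of replicate 1 peaks on 3R had a partner, against 52.2% on X, 59.0% on 2L and 47.9% on 3L. For replicate 2 the share was 42.8% on 3R, against 48.4% on X, 51.3% on 2L and 47.7% on 3L. The intervals allow for counting error alone and assume independent peaks.

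The shares on 3R were lower than on X, 2L and 3L in all 6 comparisons, but none of the differences passed the test after adjustment (2 of 6 had an unadjusted p under 0.05). Both lists count the same overlapping pairs, so their results are not independent of each other. Shared peaks of replicate 1 and replicate 2 numbered 95 and 95 on 3R, 100 and 102 on X, 104 and 106 on 2L, and 97 and 98 on 3L. The 3 other arms were taken without their last 2 Mb before the last peak, the end next to the centromere. On X, 39.5% of replicate 1 and 36.0% of replicate 2 peaks were shared, and on 3L 37.5% and 36.8%. The difference was largest against 2L, where 44.4% of replicate 1 and 38.8% of replicate 2 peaks were shared. It came to -10.0 and -9.14 percentage points (two-sided Fisher's exact test, adjusted p = 0.0706 in both, over 6 comparisons). Both 2L differences passed when an overlap had to cover 50% of the shorter peak (-11.7 and -10.6 points, Fisher's exact adjusted p = 0.0230 in both). Among peaks at or above their list's median score, 3R minus 2L came to -20.7 points in replicate 1 and passed. In replicate 2 it came to -11.2 points and did not (Fisher's exact adjusted p = 0.0946). For 3R minus 3L, replicate 2 passed at -17.0 points, while replicate 1 gave -6.75 points and did not (Fisher's exact adjusted p = 0.279). Neither difference from X passed at this setting, at -9.27 points in replicate 1 and -9.88 points in replicate 2. With a partner allowed within 1 kb, the replicate 1 share was 0.674 points higher on 3R than on 3L. Over all settings the adjusted p for 3R against 2L ranged from 0.00778 to 0.124 in replicate 1 and from 0.0230 to 0.142 in replicate 2, and that for 3R against 3L in replicate 2 from 0.00929 to 0.366 (Fisher's exact test).

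Wider 3R peaks were found again more often than narrow ones. Of the 3R peaks within the narrowest 25% of the whole replicate 1 list, up to 90 bp, 7 of 73 were shared (9.59%, Wilson interval 4.72 to 18.5). Of those within the widest 25%, from 233 bp up, 45 of 71 were shared (63.4%, interval 51.8 to 73.6). Replicate 2 gave 11 of 84 (13.1%, interval 7.47 to 21.9) for the narrowest and 41 of 66 (62.1%, interval 50.1 to 72.9) for the widest. The widest class thus held 45 of the 95 shared peaks in replicate 1 and 41 in replicate 2. The whole lists gave 11.3% for the narrowest and 70.2% for the widest class in replicate 1, and 12.7% and 61.0% in replicate 2. Median widths were 219 bp for shared and 109 bp for unshared peaks of replicate 1, and 139 bp and 71 bp in replicate 2. A wider peak has more bases with which to meet another, and the part of this in the difference was not tested.

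A high score did not go with being found again. In replicate 1, 36 of 83 peaks of the lowest-scoring 25% were shared (43.4%, Wilson interval 33.2 to 54.1), against 13 of 55 of the highest-scoring 25% (23.6%, interval 14.4 to 36.3). In replicate 2 the lowest- and highest-scoring classes gave 35.7% (26.9 to 45.6) and 33.8% (23.5 to 46.0), and the third class was the lowest at 16.9% (10.1 to 26.8). Shares by score class were not computed over the whole lists, so they do not tell whether this is particular to 3R. Among peaks at or above their list's median score, replicate 1 shares were 25.4% on 3R, 34.7% on X, 46.1% on 2L and 32.1% on 3L. In replicate 2 they were 24.6%, 34.5%, 35.9% and 41.7%. Score and width were inversely related across the 3R peaks, with a Spearman rho of -0.49 in replicate 1 (n = 276) and -0.16 in replicate 2 (n = 320). These are correlations across peaks of one library, given as a description.

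**Figure D1:**
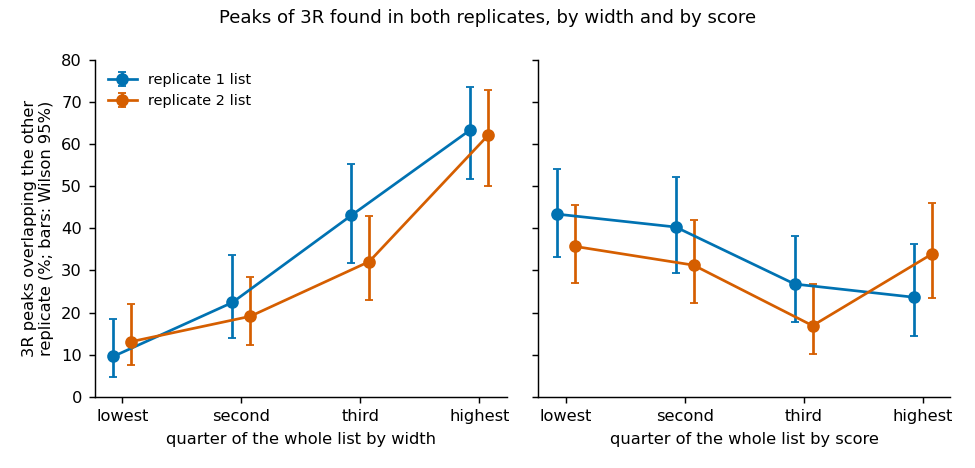
Share of 3R peaks that overlap a peak of the other replicate (y axis, percent; bars are Wilson 95% intervals), by 25% classes of the whole list for width (left) and score (right), for replicate 1 (blue) and replicate 2 (orange). The share climbs with width from 9.59% to 63.4% in replicate 1 and from 13.1% to 62.1% in replicate 2, and shows no such climb with score.

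Within the 95 shared regions the partners lay close together but differed in extent. The midpoints of the partners were a median of 29.5 bp apart (range 0 to 336 bp), and in 65 regions they were within 50 bp. The replicate 1 peak was the wider one in 72 regions and the replicate 2 peak in 22. In 44 regions the replicate 2 peak lay wholly inside the replicate 1 peak, and in 9 the reverse held. No region had the same ends in both samples. The bases covered by both made up a median of 56.3% of a region, with a range of 1.67% to 96.1%.

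Scores of the partners differed by a median of 0.42 (range 0.00721 to 2.81), and 57 of the 95 regions had scores within 0.5 of each other. Replicate 2 scored higher in 68 regions and replicate 1 in 27. Scores of separate lists have no shared unit, so this describes the lists only. Across the 95 regions, Pearson's r between the scores was 0.36 and Spearman's rho 0.27, and r was 0.21 without the highest-scoring region. Widths gave an r of 0.44 and a rho of 0.41. The points are regions of the same pair of libraries, and no p is given.

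One region had the highest score of the 95 in both samples. At 24948560 to 24948738, 179 bp wide, ORC2 scored 4.31 in replicate 1 and 4.85 in replicate 2, a mean of 4.58 ± 0.38 (SD, n = 2). It ranked at 2 among the 540 series-level regions, while the next on 3R ranked at 29. Its midpoints were 4 bp apart.

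The second region by mean score, at 11925450 to 11925709 (260 bp), scored 3.21 in replicate 1 and 3.42 in replicate 2. The fourth, at 14022853 to 14023062 (210 bp), scored 2.85 and 3.35, and the sixth, at 12034088 to 12034371 (284 bp), scored 3.03 and 3.04. In these 3 the replicates scored within 0.51 of each other and shared 78.2% to 87.6% of the region. The fifth, at 21932564 to 21932833, scored 3.07 and 3.08, but its replicate 2 peak was 10 bp wide and covered 3.70% of the region.

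The remaining 5 of the 10 highest differed by 0.497 to 2.81 between the samples. The third, at 5062727 to 5062890 (164 bp), scored 1.86 in replicate 1, below the 3R median of that list, and 4.67 in replicate 2, a mean of 3.26 ± 1.99 (SD, n = 2). This was the largest difference between partners on 3R. The seventh, at 18999687 to 18999758 (72 bp), scored 2.59 in a replicate 1 peak of 16 bp and 3.43 in replicate 2. The tenth, at 19857085 to 19857263 (179 bp), scored 2.23 and 3.39. The ninth, at 5732053 to 5732129 (77 bp), scored 2.39 and 3.45, and the eighth, at 11113557 to 11113742 (186 bp), scored 2.70 and 3.20. All 10 scored higher in replicate 2 than in replicate 1, as did 68 of the 95 shared regions. Scores of the replicate lists have no shared unit, so the SDs given also hold any difference of scale between the lists.

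**Figure D2:**
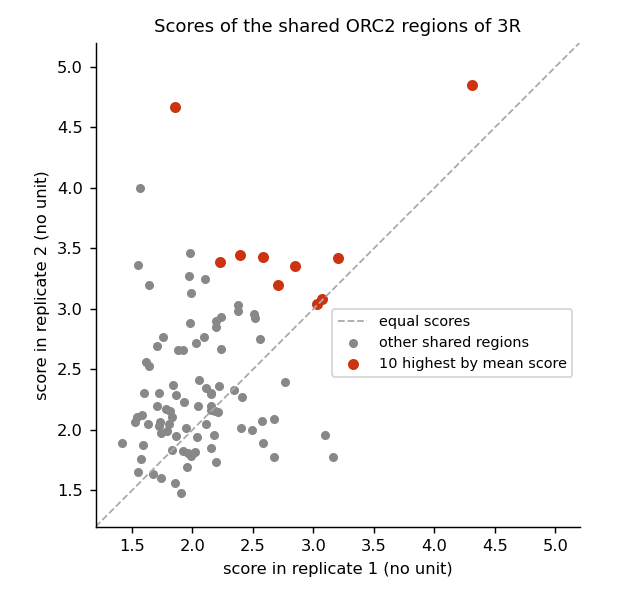
Score of each of the 95 shared 3R regions in replicate 1 (x axis, no unit) and replicate 2 (y axis, no unit). The dashed line marks equal scores and red points are the 10 regions with the highest mean. The region at 4.31 and 4.85 has the highest score in both samples, and 68 points lie above the line.

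The widest shared regions had scores below or near the 3R median of 2.21. The widest, at 7197842 to 7198597 (756 bp), joined a 447 bp peak of replicate 1 (score 2.67) and a 393 bp peak of replicate 2 (score 1.78) that shared 84 bp. The next, at 23070456 to 23071082 (627 bp), was almost all replicate 1, whose peak spanned the whole region (score 1.52), while the replicate 2 peak was 88 bp wide (score 2.07). The region at 21298294 to 21298868 (575 bp) was mostly replicate 2, with 515 bp there (score 2.18) and 157 bp in replicate 1 (score 1.78).

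The other 2 of the 5 widest were wide in both samples. At 12066814 to 12067404 (591 bp), peaks of 564 and 557 bp scored 2.11 and 2.05 and shared 530 bp. At 19747752 to 19748322 (571 bp), peaks of 561 and 495 bp scored 2.15 and 2.29 and shared 485 bp. The first shared region of the arm was at 2617246 to 2617548 (scores 1.67 and 1.63) and the last at 27620173 to 27620419 (scores 1.92 and 2.66).

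Several of the highest scores of single samples lay on peaks with no partner within 1 kb. The highest in all of replicate 2 was 17.9, on a peak of 15 bp at 5719010 to 5719024, and the nearest replicate 1 peak was 13.1 kb away. Next came a peak at 4618361 to 4618506 (146 bp, score 6.85), 129 kb from any replicate 1 peak, and one of 37 bp at 5935651 to 5935687 (score 4.62), 1.48 kb away. In replicate 1 the unpartnered peaks with the highest scores were at 21010800 to 21010813 (14 bp, score 4.31), at 16922649 to 16922728 (80 bp, score 3.98) and at 25667333 to 25667471 (139 bp, score 3.73). They lay 23.3, 29.7 and 34.7 kb from the nearest replicate 2 peak.

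Many 3R scores recurred to the last printed digit. This held for 99 of 276 peaks in replicate 1 (35.9%) and 167 of 320 in replicate 2 (52.2%). Counted against every peak of the list, the shares were 39.5% and 54.7% on 3R and 36.1% and 46.9% for all peaks. The most frequent value was 2.15436 in replicate 1, on 12 peaks with a median width of 86.5 bp, and 2.46296 in replicate 2, on 14 peaks with a median width of 48.5 bp. The replicate 1 score of the highest shared region, 4.30872, was exactly 2 times the most frequent value, and the unpartnered peak of 14 bp carried the same score. The 2 peaks with this score were thus 179 and 14 bp wide, and the wider of them was found in both samples. Other replicate 1 scores found on 4 or more peaks were 0.889, 1.09, 1.2 and 1.33 times the most frequent value. In replicate 2 such scores ran from 0.794 to 1.3 times its most frequent value. Whether scores are ratios of small read numbers was not tested, and this limits what the score of a peak named here says about binding.

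3R carried fewer ORC2 peaks per Mb than X, 2L and 3L in each of the 3 lists, by amounts that did not pass the test after adjustment (2 of 9 had an unadjusted p under 0.05). Over 25.8 Mb, 3R held 3.68 shared regions per Mb (exact Poisson 95% interval 2.97 to 4.49), against 4.94 on X (4.02 to 6.01), 5.19 on 2L (4.24 to 6.29) and 4.63 on 3L (3.76 to 5.65). The ratio of 3R to 2L was 0.708 (95% interval 0.530 to 0.944; two-sided exact binomial test, p = 0.0151, adjusted p = 0.136 over 9 comparisons). The ratio was 0.744 to X (0.556 to 0.995, exact binomial adjusted p = 0.194) and 0.794 to 3L (0.592 to 1.06, adjusted p = 0.20). The replicate lists lay nearer to 1. In replicate 1 the ratios were 0.854 to X, 0.914 to 2L and 0.864 to 3L, and in replicate 2 they were 0.885, 0.908 and 0.975, with adjusted p from 0.20 to 0.771 (exact binomial test). Joining peaks within 1 kb of each other took the replicate 2 ratios to 1.01 for 2L and 1.02 for 3L, so their direction was not stable.

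Peaks of high score were sparser on 3R than on X. Of the 95 shared regions of 3R, 38 (40.0%, Wilson interval 30.7 to 50.1) scored at or above the median of the whole series-level list, against 66.0% on X (56.3 to 74.5), 48.1% on 2L (38.7 to 57.6) and 56.7% on 3L (46.8 to 66.1). The replicate lists gave 45.7% and 44.4% on 3R against 59.3% and 59.4% on X. On 2L they gave 43.6% and 48.0%, and on 3L 54.1% and 49.6%. The replicate 1 share of such peaks was thus lower on 2L than on 3R. Restricted to such peaks, 3R held 1.47 shared regions per Mb (1.04 to 2.02) and X held 3.26 (2.52 to 4.15), a ratio of 0.451 (0.294 to 0.682). This passed the test (exact binomial adjusted p = 0.000605), as did the ratios of 0.658 in replicate 1 (adjusted p = 0.00159) and 0.662 in replicate 2 (adjusted p = 0.00136).

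Against the autosomal arms the restricted ratios were less even. They were 0.589 to 2L and 0.560 to 3L in the series-level list (exact binomial adjusted p = 0.0202 and 0.0145) and 0.729 to 3L in replicate 1 (adjusted p = 0.0202). The other 3, for both arms in replicate 2 and 2L in replicate 1, did not pass. Over all settings the adjusted p of the series-level ratios ranged from 0.000605 to 0.342 for X, from 0.0202 to 0.367 for 2L and from 0.0145 to 0.771 for 3L (exact binomial test). The test treats peaks as independent, so these p-values are lower limits, and with no input analysed the dosage of X was not accounted for.

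**Figure D3:**
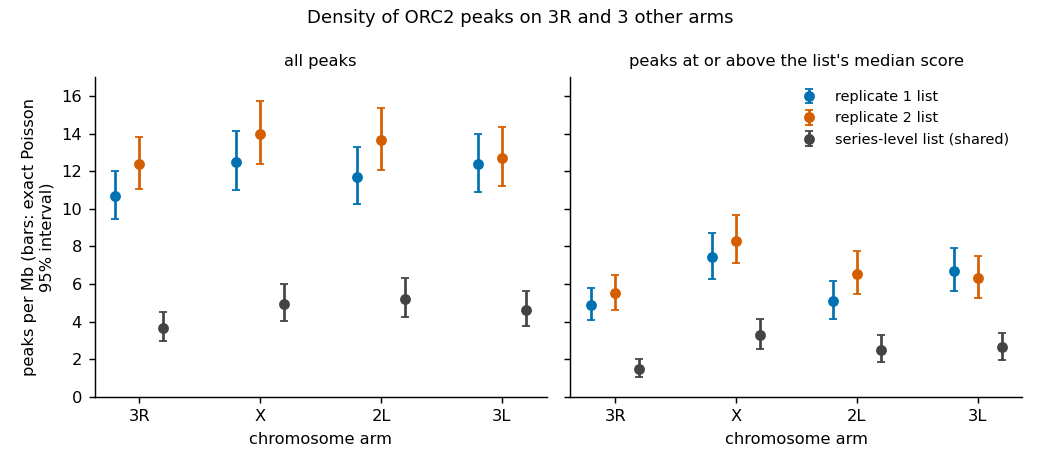
Peaks per Mb (y axis; bars are exact Poisson 95% intervals) on 3R, X, 2L and 3L in the replicate 1 (blue), replicate 2 (orange) and series-level (grey) lists, for all peaks (left) and for those at or above their list's median score (right). 3R has the lowest point of each list in both panels. On the right, its 1.47 shared regions per Mb compare with 3.26 on X.

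Along 3R the peaks were uneven in a way that both samples shared. In the 25 complete windows of 1 Mb, replicate 1 had 4 to 27 peaks (median 10) and replicate 2 had 3 to 27 (median 11). The window from 12000001 to 13000000 was the fullest in all 3 lists, with 27, 27 and 12. The window from 5000001 to 6000000 held 17 peaks of replicate 1 and 23 of replicate 2 but only 4 shared regions. The one from 17000001 to 18000000 held 14, 24 and 8. Across windows the counts of the samples had a Pearson's r of 0.79 and a Spearman's rho of 0.78 (r = 0.72 without the fullest window). Windows share the sequence under them in both samples, and no p is given.

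Replicate 2 had more peaks on the centromere side of the arm than on the telomere side. Cutting the arm into equal portions of 12.9 Mb gave 184 replicate 2 peaks on the centromere side and 136 on the telomere side, a ratio of 1.35 (95% interval 1.08 to 1.70; two-sided exact binomial test, adjusted p = 0.0255 over the 3 lists). Replicate 1 had 144 and 132, a ratio of 1.09 (0.855 to 1.39, exact binomial adjusted p = 0.508). The series-level list had 54 and 41, a ratio of 1.32 (0.861 to 2.03, exact binomial adjusted p = 0.327). The difference between the samples was not tested. Leaving out a crowded window of 100 kb, from 12000001 to 12100000, which was picked for its high count and lies in the centromere-side portion, could only lower these ratios. It took the replicate 2 ratio to 1.24 (exact binomial adjusted p = 0.20; range over all settings 0.0187 to 0.20) and that of replicate 1 to 0.992. Among peaks at or above the list's median score the replicate 2 ratio was 1.41 and did not pass (exact binomial adjusted p = 0.160). Peaks were treated as independent in these tests, so the p-values are lower limits. Counts per complete 1 Mb window had a variance 3.40 times their mean in replicate 2, 2.49 times in replicate 1 and 1.58 times in the series-level list. Independently placed peaks of even density would have a variance near their mean.

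**Figure D4:**
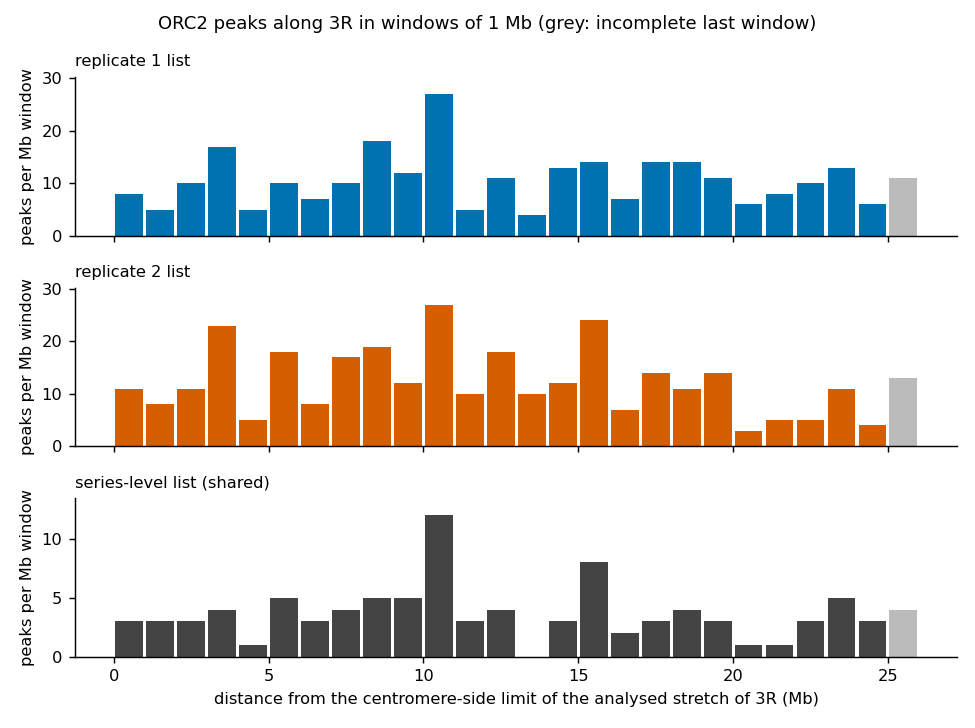
Peaks of each list in windows of 1 Mb along 3R (y axis, number of peaks; x axis, Mb from the centromere-side limit), for replicate 1 (blue), replicate 2 (orange) and the series-level list (dark grey); the light grey last window is incomplete. The eleventh window holds 27, 27 and 12 peaks, and the fourteenth holds no shared region.

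The crowded stretch lay between 12000001 and 12100000, chosen after its values were seen. This window of 100 kb held 13 peaks of replicate 1, 15 of replicate 2 and 7 shared regions. In replicate 1 the 13 peaks formed a single chain with no gap over 10 kb, from 12033887 to 12086865. In replicate 2, 9 peaks formed such a chain from 12049128 to 12068523. Replicate 1 peaks there had a median width of 282 bp and replicate 2 peaks 151 bp, against 136 and 88 bp on 3R as a whole. Their median scores were 2.11 and 2.54.

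The 7 shared regions of this stretch ran from 12034088 to 12086865. The first, at 12034088 to 12034371, had the highest mean score of the 7, with 3.03 in replicate 1 and 3.04 in replicate 2. It was followed by regions at 12049036 to 12049317 (scores 1.99 and 1.78) and at 12050386 to 12050728 (1.82 and 2.16). Then came 3 regions within 6.55 kb, at 12062072 to 12062491 (1.98 and 2.88), at 12066814 to 12067404 (2.11 and 2.05) and at 12068183 to 12068619 (2.21 and 2.15). The last, at 12086690 to 12086865, scored 3.16 in replicate 1 and 1.78 in replicate 2. The widest 3R peak of replicate 1, 1276 bp at 12075255 to 12076530, also lay here, with a low score of 1.49 and no replicate 2 partner.

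**Figure D5:**
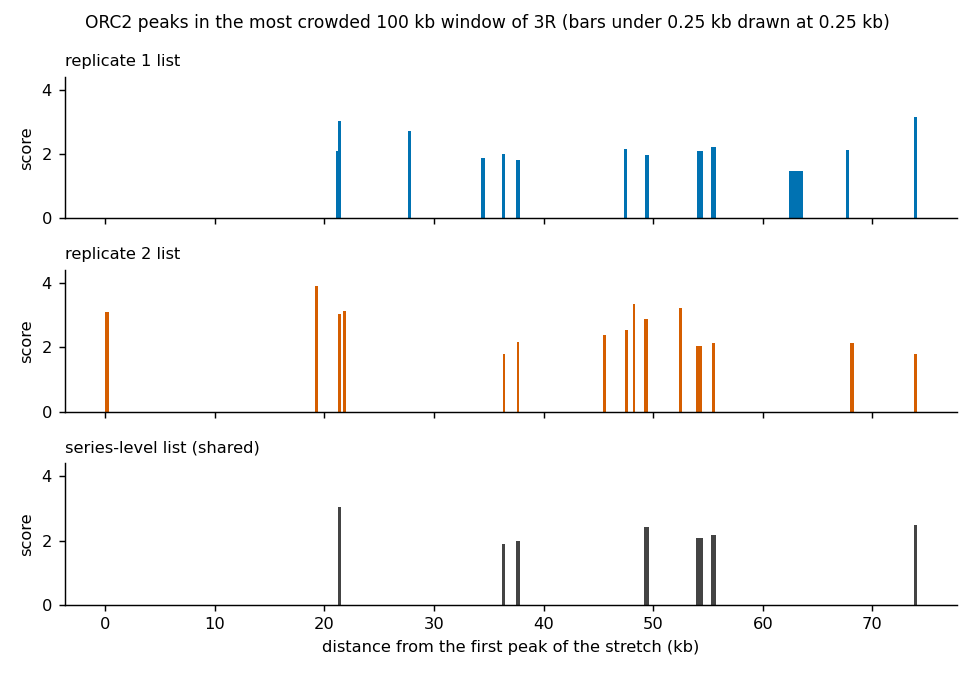
Peaks of the fullest 100 kb window of 3R as bars at their place (x axis, kb from the first peak of the stretch) with their score as height (y axis, no unit), for replicate 1 (blue), replicate 2 (orange) and the series-level list (grey). There are 13, 15 and 7 bars. The broad low bar of replicate 1 is the 1276 bp peak with a score of 1.49.

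The shared regions of 3R mostly had no close neighbour. Of the 95, 17 (17.9%, Wilson interval 11.5 to 26.8) had another within 10 kb, against 37.0% on X (28.2 to 46.8), 50% on 2L (40.6 to 59.4) and 27.8% on 3L (19.9 to 37.5). After regions within 1 kb were joined, the shares were 11.0% on 3R (6.08 to 19.1), 30.1% on X (21.7 to 40.1), 31.8% on 2L (23.0 to 42.1) and 20.9% on 3L (13.8 to 30.3). Chained over gaps of up to 10 kb, they made 7 pairs and 1 group of 3, and no group reached 4. The median gap between neighbours was 185 kb on 3R, 97.0 kb on X, 97.8 kb on 2L and 85.3 kb on 3L. The peaks of single samples did not stand so far apart: 44.2% of replicate 1 peaks on 3R had a neighbour (X 45.1%, 2L 54.3%, 3L 47.1%) and 49.4% of replicate 2 peaks (X 54.8%, 2L 59.3%, 3L 48.9%). Their lists were also denser on 3R, at 10.7 and 12.4 peaks per Mb against 3.68 shared regions per Mb. Neighbours come in pairs and are not independent, so the Wilson intervals are too narrow and these shares are a description with no test. 3R also had the fewest shared regions per Mb, and the part of density in the shares with a neighbour was not tested.

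Some long stretches of 3R held no shared region although both samples had peaks in them. The longest ran from 14973529 to 16418774 (1445 kb), with 5 peaks of replicate 1 and 15 of replicate 2, none of which met. The stretch from 23071083 to 24460165 (1389 kb) held 9 and 5 peaks, and the one from 17682117 to 18969251 (1287 kb) held 3 and 5. From 22056051 to 23070455 (1014 kb) there were 5 peaks of replicate 1 and 2 of replicate 2. Such stretches were not particular to 3R. The longest gap between shared regions was 1448 kb on X, 1686 kb on 2L and 1402 kb on 3L.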

How the data were processed

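Peaks were analysed from 3 lists, 1 for each ORC2 ChIP sample and 1 for the series; the 2 input samples were not analysed here. Per the file headers, coordinates are on FlyBase release 5.1 and the peaks come from PeakSeq. The sources used here name no aligner and no version, threshold or control of PeakSeq. Per the labels' protocols, libraries were size-selected at 150 to 200 bp. The authors deposited a score per peak with no stated unit; other deposited values are the first and last base, so depth is unknown. The series-level regions were the unions of overlapping replicate peaks, with their mean score (tolerance 1e-05), in 540 of 540 cases.

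Peaks matched if they overlapped by 1 bp or more. Lengths ran from base 2000001 on 3R, or base 1 on X, 2L and 3L, to the last peak of any list, less 2 Mb on the latter 3. Densities were compared by exact binomial tests and shares by Fisher's exact tests, two-sided, with Benjamini-Hochberg adjustment and a threshold of 0.05. They compare peaks, not conditions, and the samples may be technical replicates. Regions named were the 10 highest-scoring, the 5 widest, the first and last, members of groups of 4 or more within 10 kb, peaks beside the limit and, per replicate, the 3 highest-scoring peaks with no partner within 1 kb; any other was picked after seeing its value. Members and tests were chosen with earlier results of these data known. No genome of release 5.1 was used, so genes and sequences at the peaks are not given. The statistics, run with SciPy 1.17.1, NumPy 2.4.6 and pandas 2.3.3 under Python 3.11.15, were tested on simulated data. The simulated peaks were placed independently, so this does not show how the tests behave with peaks as uneven as those of 3R. Plots were drawn with matplotlib 3.10.9.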

Additional observations from a re-analysis of the deposited data

How the results depend on the processing

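Of the 125 alternative values, 95 were counted as unchanged. Tested values had to keep their direction and their side of the threshold, and untested ones had to lie within their interval. For a series-level median replaced by that of a single replicate, the limit was instead the SD of the 2 replicate medians. No paired analysis was possible because only the ChIP samples had a list. With peaks at or above the list's median score, density ratios of 3R passed the exact binomial test at 0.658 to X and 0.729 to 3L in replicate 1, 0.662 to X in replicate 2, and 0.451 to X, 0.589 to 2L and 0.560 to 3L in the series-level list. The share found again then also passed Fisher's exact test at -20.7 points against 2L in replicate 1. It did so at -17.0 points against 3L in replicate 2. Neither result passed in the other replicate, and no share against X passed. The ratio of the equal portions of replicate 2 was then 1.41 and no longer passed. With an overlap of 50%, the shares against 2L passed at -11.7 and -10.6 points. A gap of up to 1 kb turned the replicate 1 share against 3L to 0.674 points. Joining peaks within 1 kb turned the replicate 2 density ratios to 1.01 (2L) and 1.02 (3L), and moved the shares with a neighbour to 29.7%, 38.6% and 11.0% in replicate 1, replicate 2 and the series-level list. Limits of 5 kb and 20 kb gave 34.4% and 56.2% in replicate 1 and 43.1% and 65.0% in replicate 2. Leaving out the fullest 100 kb window, chosen after seeing the data for its count and taken from 3R alone, could only lower these ratios. The series-level ratio to 2L was then 0.656, past the threshold by a removal that favours it, and the portion ratios were 1.24 in replicate 2 and 0.992 in replicate 1. Keeping peaks of 36 bp or more moved the replicate 2 median width to 100 bp. Replacing the series-level list by that of a single replicate gave ratios to X of 0.854 to 0.885, to 2L of 0.908 to 0.914 and to 3L of 0.864 to 0.975, portion ratios of 1.09 to 1.35, neighbour shares of 44.2% to 49.4%, median scores of 2.15 to 2.33 and median widths of 88 to 136 bp. The cause of these shifts was not tested. Depth is unknown and limits every count.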

Other observations

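The centromere-side end of 3R, left out above, carried ORC2 peaks at a density near that of the rest of the arm. Up to base 2000000 there were 22 peaks of replicate 1, 24 of replicate 2 and 7 shared regions. This gave 11.0 per Mb (exact Poisson 95% interval 6.89 to 16.7), 12 per Mb (7.69 to 17.9) and 3.50 per Mb (1.41 to 7.21), against 10.7, 12.4 and 3.68 per Mb above the limit. Median scores there were 2.14, 2.28 and 1.99. The heterochromatic scaffold 3RHet held 4, 3 and 1 peaks.

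No neighbouring peaks of a replicate list lay closer than 201 bp, over 1375 gaps in replicate 1 and 1588 in replicate 2. A step that joins calls up to such a distance is not given in the sources used here.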
